A study of Mus musculus with 4 samples.

Results

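This account is of the ATF4 peaks that lay just past the start of a protein-coding transcript in mouse regulatory T cells. A peak was taken when the authors' list put it in the class for promoters within 1 kb, gave it a distance above 0 to the transcription start site, and assigned it to a transcript whose identifier begins with NM_ or XM_. The rule gave 541 of the 4544 listed peaks, assigned to 524 genes. Curated NM_ transcripts took 416 of them and predicted XM_ transcripts 125. Such a peak begins past the start, within 1 kb of it, and does not reach back to the start itself.

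The peaks come from ChIP-seq of ATF4 in CD4+CD25+ T cells, a sorted fraction enriched in regulatory T cells, which hold immune responses in check. There were 2 ATF4 immunoprecipitates and 2 inputs, each replicate made from 24000000 cells that had been fixed with 1% formaldehyde for 10 min. The sample labels name spleen, and the series' design names lymph nodes as well. All samples were of the same kind of cell. The sources used here do not give mouse strain, age, any pooling of animals or the purity of the fraction. CD25 is also carried by activated conventional T cells, so the sort enriches for regulatory T cells without being limited to them.

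The deposited result is 1 peak list for the series, on build mm10. Values per sample are not in it. Replicate errors and sample depths are therefore unknown, and no difference between kinds of peaks was tested. Fold enrichment (read density at the summit relative to the background of the peak caller), −log10 q and the summit position are the authors' own values, used here only to describe and rank peaks within the list. Percentages carry exact Clopper-Pearson 95% intervals and medians carry exact binomial 95% intervals, which cover counting error within the list only.

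ATF4 is a basic leucine zipper factor whose translation is raised when the kinases of the integrated stress response phosphorylate eIF2α. It binds DNA as a dimer, often with a C/EBP protein, at composite C/EBP-ATF response elements, and activates genes of amino acid supply, tRNA charging, one-carbon metabolism and the stress response. In some known targets, among them a translational repressor gene and amino acid transporter genes, response elements lie past the start, in the first intron.

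The DNA around the starts is shown for 4 genes whose downstream peaks were among the 20 strongest, because the stretches show what lies before these peaks. Each is the 250 bases that end just before the start, from the RefSeq promoter windows of GRCm38.p6, the assembly that mm10 represents, printed 5′ to 3′ on the strand of the gene. Capitals mark matches on either strand to TGATGNAA, the core of the C/EBP-ATF response element, TGACGTCA, the cyclic AMP response element, TGANTCA, the AP-1 site, and CCGGAAG, an ETS site. None of the matches marked overlapped another. The lines are chr6:55037751-55038000 on the plus strand for Gars, chr3:108445260-108445509 on the minus strand for Sars, chr6:83317605-83317854 on the minus strand for Mthfd2 and chr10:127522445-127522694 on the minus strand for Shmt2.
Gars: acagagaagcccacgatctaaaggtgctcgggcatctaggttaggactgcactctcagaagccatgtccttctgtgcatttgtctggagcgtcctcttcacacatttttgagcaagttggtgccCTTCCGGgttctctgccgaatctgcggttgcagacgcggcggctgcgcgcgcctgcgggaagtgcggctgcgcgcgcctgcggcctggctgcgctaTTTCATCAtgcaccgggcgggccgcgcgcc
Sars: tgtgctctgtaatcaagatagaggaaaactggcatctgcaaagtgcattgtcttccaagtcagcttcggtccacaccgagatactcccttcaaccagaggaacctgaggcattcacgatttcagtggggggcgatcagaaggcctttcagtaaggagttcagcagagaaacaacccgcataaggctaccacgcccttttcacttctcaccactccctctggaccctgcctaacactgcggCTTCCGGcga
Mthfd2: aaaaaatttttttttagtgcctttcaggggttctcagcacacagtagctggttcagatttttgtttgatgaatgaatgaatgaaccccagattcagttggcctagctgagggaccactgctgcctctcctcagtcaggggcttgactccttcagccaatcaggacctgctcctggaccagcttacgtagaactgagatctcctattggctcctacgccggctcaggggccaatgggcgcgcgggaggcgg
Shmt2: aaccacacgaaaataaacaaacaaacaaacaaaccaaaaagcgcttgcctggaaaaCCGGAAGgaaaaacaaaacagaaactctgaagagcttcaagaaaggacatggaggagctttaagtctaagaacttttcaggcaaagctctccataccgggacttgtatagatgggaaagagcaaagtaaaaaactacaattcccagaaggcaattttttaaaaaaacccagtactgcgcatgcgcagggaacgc

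Of these 4 stretches, that of Gars alone held TGATGNAA, on the opposite strand and beginning 30 bases before the start. Gars encodes glycyl-tRNA synthetase, and it had a peak over its start as well as one past it. The match lay at chr6:55037971-55037978, inside the start peak at chr6:55037778-55038212, and the summit of that peak was 3 bases beyond the end of the match. The downstream peak of Gars lies outside the stretch, and no sequence under it was used. The stretches of Sars, Mthfd2 and Shmt2 lie before starts that had a downstream peak and no listed peak over them.

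Sequence under a downstream peak was at hand only where a RefSeq promoter window, often that of another gene or of a second start, ran over it. Such a window touched 163 of the 541 downstream peaks and held the summit of 47. For 34 of those used it held the 30 bases around the summit, and the 6 of these with the highest fold enrichment are shown, on the strand of the assigned gene and with the summit base in capitals. They range from 5.20-fold at Tmem131l to 3.22-fold at Fgfr1op2, and none of the 20 strongest downstream peaks is among them. The lines are chr3:84040059-84040088, chr19:28963967-28963996, chr4:57956270-57956299, chr2:50296634-50296663, chr6:118138913-118138942 and chr6:146577987-146578016, with Plpp6 and Fgfr1op2 on the plus strand and the others on the minus strand.
Tmem131l: cggcgcccgcagtcCggcgcctaccgccgc
Plpp6: ctgcccgggtccccgGgaccggcctccctc
Txn1: actcggttgcaagcTccgttgggcgccttg
Mmadhc: gcggaggccgcgcgGtgactggtacggatg
Csgalnact2: ggcgcttccttgacGcgccctcccgaggct
Fgfr1op2: gtgggtttcccgtacGtcccgccgctgtgt

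The 34 stretches were rich in G and C, with a median of 70.0%, but each was readable only because a promoter window held it. Whole windows had medians of 62.3% at the assigned starts of downstream peaks, 62.7% at start-overlapping peaks and 52.7% over all windows. TGATGNAA, TGACGTCA and TGANTCA were in none of the 34 stretches, and CCGGAAG was in 1. An absent match says only that these letters are not in these bases.

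Most downstream peaks lay close to the start, 353 of 541 or 65.2% of them within 250 bases. The near edge lay at a median of 97 bases from the start, with quartiles of 34 and 438 bases, and 271 of the 541 peaks, or 50.1% (45.8 to 54.4), began within 100 bases of it. The summit lay farther in, at a median of 216 bases with quartiles of 110 and 559. The shortest summit distance was 9 bases and the longest 1512, and 36 summits lay beyond 1 kb, because the rule reads the near edge of a peak. Of the 541 peaks, 531 lay wholly inside the span of the assigned transcript, and 10 reached past its end.

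**Figure D1:**
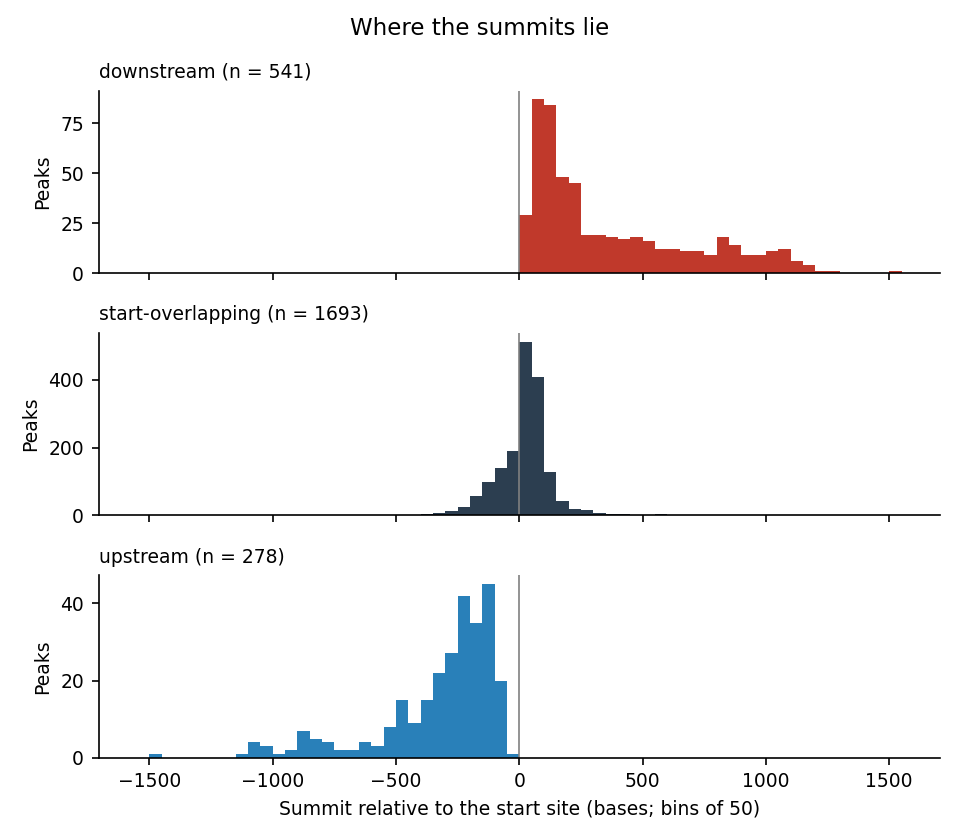
Histograms of the summit position relative to the assigned transcription start site, in bases, in bins of 50, for the 541 downstream, 1693 start-overlapping and 278 upstream coding promoter peaks. Downstream summits had a median of 216 bases past the start with a tail beyond 1 kb, and start-overlapping summits had a median 33 bases past it.

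The edge of the rule runs through a crowd of like peaks. Just inside it, 8 peaks began 1 base past the start, among them those of Add3 at 3.61-fold, Ndel1 at 3.86-fold and Pygl at 4.59-fold. Just outside it were the start-overlapping peaks whose first base was the start itself, such as those of Chka at 4.10-fold, Cd274 at 3.82-fold and Ppp1r15a at 2.29-fold. The summits of these peaks could not lie before the start, since the peaks begin there. At the far end, the peaks of Mettl9, Gimap5 and Fermt3 began 991, 994 and 1000 bases from the start at 3.35-fold, 3.71-fold and 2.05-fold. The peaks of Grk2, Kpna4 and Klf13 fell just beyond the limit, at 1007, 1010 and 1012 bases with 2.64-fold, 2.66-fold and 2.62-fold.

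Fold enrichment over the 541 downstream peaks ranged from 1.82 to 20.0, with a median of 2.94 (2.87 to 3.01). The median was 3.32 (3.26 to 3.38) over 1693 start-overlapping peaks and 2.94 (2.80 to 3.04) over 278 upstream peaks of coding transcripts, and 3.30 over the whole list. The downstream median was lower by 0.375 than the start-overlapping one, while the downstream and upstream medians differed by 0.0026. By −log10 q the medians were 4.59 for downstream, 7.83 for start-overlapping and 5.52 for upstream peaks. Downstream peaks had a median width of 220 bases, start-overlapping peaks of 298 and upstream peaks of 218. The rule puts any peak that reaches the start in the start-overlapping class. How far this or peak width shaped the difference in medians was not tested.

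By near edge, few downstream peaks were strong. A fold enrichment of at least 5 was reached by 28 of 541, or 5.18% (3.47 to 7.39), against 12.3% of all listed peaks. It was reached by 14.9% (13.3 to 16.7) of start-overlapping and 6.12% (3.60 to 9.61) of upstream peaks. Placed by summit, which takes in many start-overlapping peaks, 1649 peaks lay downstream and 12.98% of them reached 5-fold, so the lower share holds for the near edge and not for the summit. A −log10 q of at least 3 was reached by 389 downstream peaks, or 71.9% (67.9 to 75.7), against 76.9% of all listed peaks, and 18 downstream peaks had a q over 0.05.

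**Figure D2:**
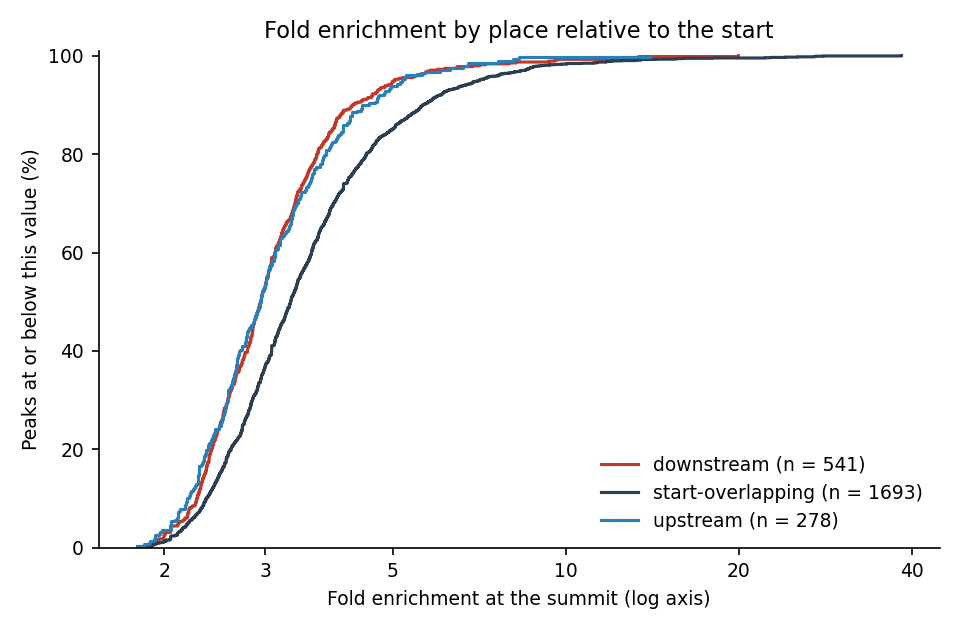
Cumulative share of peaks, in percent, at or below each fold enrichment at the summit (log axis), for downstream, start-overlapping and upstream coding promoter peaks. The downstream and upstream curves run together, with medians of 2.94 each, to the left of the start-overlapping curve, whose median is 3.32.

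Most of the strongest downstream peaks began away from the start. The 107 peaks that began within 25 bases of it had a median of 3.01-fold and a highest value of 6.46. The median was 2.67-fold over the next 82 peaks, up to 50 bases, and 2.78-fold in both of the next 2 sets of 82, up to 100 and up to 250 bases. It was 3.08-fold over 69 peaks beyond that and up to 500 bases, and 3.26-fold over the 119 peaks beyond 500 bases, where the highest value was 20.0. The change along the gene was thus not steady, with the nearest peaks above their neighbours. For the comparisons that follow, 250 bases was taken as a divide after these values had been seen. Beyond 250 bases there were 188 downstream peaks with a median fold enrichment of 3.16 (3.04 to 3.38), against 2.83 (2.73 to 2.91) for the 353 peaks nearer than that. Of the farther peaks 19, or 10.1% (6.20 to 15.3), reached 5-fold, and of the nearer ones 9, or 2.55% (1.17 to 4.78). Of the 20 strongest downstream peaks, 15 began more than 250 bases from the start. The medians of −log10 q lay closer together, at 4.68 for the farther and 4.44 for the nearer peaks. The rule sets aside any peak that reaches the start, so it limits which peaks can count as near. How far this shaped the contrast by distance was not tested.

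**Figure D3:**
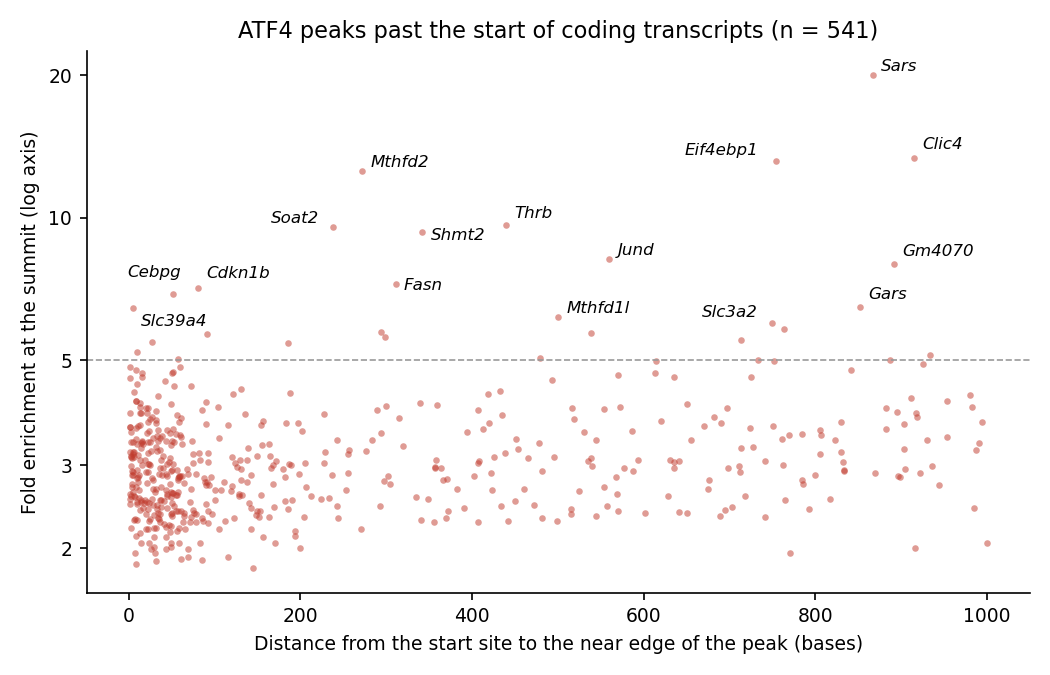
Fold enrichment at the summit (log axis) against the distance in bases from the start site to the near edge, for the 541 downstream peaks, with the 16 strongest named and a dashed line at 5-fold. Points crowd within 100 bases of the start at 2-fold to 5-fold, and the highest, from Mthfd2 at 272 bases to Clic4 at 915, lie farther in.

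The leading downstream peak was that of Sars, which encodes seryl-tRNA synthetase, at 20.0-fold with a −log10 q of 178. It lay at chr3:108443974-108444392, and its near edge was 867 bases past the start of the assigned transcript NM_001204979.1. Clic4, which encodes a chloride intracellular channel protein, followed at 13.4-fold (chr4:135271530-135271845), 915 bases in. Eif4ebp1, which encodes a repressor that binds the cap-binding factor eIF4E, had 13.1-fold at chr8:27261081-27261439, 754 bases in. In each of these genes it was the only listed peak. The rule reads the near edge, and the summits of Sars and Clic4 lay beyond 1 kb, at 1053 and 1087 bases.

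Among the 20 strongest were 3 enzymes of the folate cycle, which passes one-carbon units from serine to purine and thymidylate synthesis. Mthfd2, a mitochondrial methylenetetrahydrofolate dehydrogenase, ranked next after Eif4ebp1 and had a peak of 12.5-fold at chr6:83316991-83317332, 272 bases past its start. Shmt2, the mitochondrial serine hydroxymethyltransferase, had 9.35-fold at chr10:127521787-127522102, 342 bases in. Mthfd1l, the mitochondrial formyltetrahydrofolate synthetase, had 6.16-fold at chr10:3973575-3973975, 500 bases in. These 3 encode successive steps of the mitochondrial arm of the cycle, and in each gene the peak began at least 272 bases past the start.

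Another 3 genes were among the 10 strongest. Thrb, which encodes a thyroid hormone receptor, had 9.67-fold at chr14:17982084-17982369. Soat2, which encodes a cholesterol-esterifying enzyme, had 9.56-fold at chr15:102150813-102151133, and Fasn, the fatty acid synthase gene, had 7.24-fold at chr11:120823907-120824236. Thrb, Soat2 and Fasn peaks began 440, 238 and 311 bases from the start, clear of it.

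Jund, which encodes an AP-1 subunit, had a peak of 8.19-fold spread over 1241 bases at chr8:70698299-70699539, with the second highest −log10 q of the downstream peaks at 165. Cdkn1b, which encodes the cyclin-dependent kinase inhibitor p27, had the broadest downstream peak at 1254 bases and 7.09-fold. Its near edge lay 81 bases from the start but its summit 1142 bases in, so the near edge and the summit place it differently. Cebpg, which encodes a C/EBP protein that dimerises with ATF4, had 6.90-fold at chr7:35056027-35056514, 52 bases in, and that peak also overlapped the span of Gm45095.

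The rest of the 20 strongest ranged from 7.97-fold to 5.68-fold. They were Gm4070 at 7.97, the Gars peak at 6.48, the zinc transporter gene Slc39a4 at 6.46, Slc3a2 at 5.98, Lratd2 at 5.81, the histone gene H3c7 at 5.74, Dock2 at 5.70 and Gm2396 at 5.68. The Slc39a4 peak began only 5 bases from its start, the nearest of the 20. Of the 20 genes, 16 had no other peak anywhere in the list. By −log10 q, the 5 highest were Sars, Jund, Mthfd2, Gm40367 and Gm36327, and the predicted genes Gm40367 and Gm36327 had only 2.89-fold and 2.94-fold.

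Listed genes of the ATF4 program had downstream peaks. Of 43 canonical ATF4 targets, 11 had one, or 25.6% (13.5 to 41.2), where 2.39% of the 21887 protein-coding genes did. Over the start, 19 of the 43 had a peak, where 7.54% of protein-coding genes did. The strongest downstream peaks of those 11 had a median of 5.98-fold, against 2.94-fold over all downstream peaks. Of these 11 peaks, 9 began more than 250 bases from the start, against 188 of all 541 downstream peaks, or 34.8%. Beside those named above, the tRNA export receptor gene Xpot had 4.24-fold, the serine synthesis gene Phgdh 3.97-fold, the glycine transporter gene Slc6a9 3.59-fold and Herpud1 2.33-fold. Atf4 itself had its only listed peak here, at 3.22-fold with a −log10 q of 19.2, 257 bases past its start and 693 bases wide. Genes that are silent in T cells count in the 2.39%, since no expression data were used.

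Aminoacyl-tRNA synthetases, which charge tRNAs, had downstream peaks at 5 of 20 genes (25.0%), where 2.39% of all protein-coding genes did. After Sars and Gars these were Vars at 3.76-fold, Eprs at 3.11-fold and Dars at 2.44-fold, so the list runs from the strongest downstream peak of all to a value below the median. Amino acid transporters had downstream peaks at 3 of 22 (13.6%), with Slc43a2 at 2.93-fold below Slc3a2 and Slc6a9. Serine, glycine and folate enzymes had them at 4 of 18 (22.2%), with a median of 7.75-fold. All 4 began more than 250 bases in, against 34.8% of all downstream peaks, and all 4 genes are also among the canonical ATF4 targets. Of ER stress and folding genes 4 of 29 (13.8%) had one, none above the 3.38-fold of the oxidoreductase gene Ero1b. The stress factor gene Xbp1 had 2.85-fold and the chaperone gene Canx 2.67-fold. Start-overlapping peaks were at 10 of the 20 synthetase genes and 6 of the 22 transporter genes. They were also at 2 of the 18 serine, glycine and folate genes and 10 of the 29 ER stress genes. Of all protein-coding genes, 7.54% had one.

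Among genes of the bZIP family, to which ATF4 belongs, 9 of 49 (18.4%) had downstream peaks, against 2.39% of all protein-coding genes. After Jund and Cebpg came Nfe2l1 at 5.12-fold, Creb1 at 3.95-fold and Nfe2l2 at 3.77-fold, the last of these the gene of the antioxidant factor NRF2. Bach2, which encodes a repressor of effector differentiation in T cells, had 3.48-fold over a peak that began 55 bases in and had its summit at 897 bases. Junb had 2.42-fold, the lowest of the 9. Start-overlapping peaks were at 17 of the 49 genes, where 7.54% of protein-coding genes had one.

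Core genes of regulatory T cells had downstream peaks at 8 of 41, or 19.5% (8.82 to 34.9), and none reached 5-fold. Foxp3, the lineage-defining factor gene, had 4.97-fold at chrX:7581235-7581440, 752 bases past the start of NM_001199348.1. Lrrc32, which encodes the TGF-β docking receptor GARP, had 3.98-fold, the costimulatory receptor gene Tnfrsf4 3.96-fold and the checkpoint receptor gene Ctla4 3.62-fold. The zinc finger factor genes Ikzf2, Ikzf3 and Ikzf1 had 3.04-fold, 2.90-fold and 2.50-fold. The peaks of Lrrc32, Tnfrsf4, Bach2, Ikzf2 and Ikzf1 began within 100 bases of the start, and those of Foxp3, Ctla4 and Ikzf3 at least 712 bases in. Of 40 genes of effector and tissue regulatory T cells 1 had such a peak, Bcl6 at 2.52-fold, a share of 2.50%, near the background share of 2.39%. Over the start, 11 of these 40 genes and 20 of the 41 core genes had a peak, where 7.54% of protein-coding genes did.

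T cell receptor signalling genes had downstream peaks at 7 of 36 (19.4%), against 2.39% of all protein-coding genes. They ran from 4.10-fold at the phosphatase gene Ptpn22 to 2.58-fold at the adaptor gene Lcp2. The calcium-responsive factor gene Nfatc1 had 3.11-fold, and the paracaspase gene Malt1 3.10-fold with a near edge 4 bases from its start. The NF-kB and TNF superfamily list had 4 of 40 (10.0%), led by the cytokine gene Tnfsf11 at 4.16-fold and Tnfrsf4. Behind them were the IkB-family gene Nfkbiz at 3.40-fold and Birc3 at 3.16-fold. Of 28 migration and recirculation genes 2 (7.14%) had one, and both were strong. These were Dock2, which encodes a Rac activator of lymphocyte migration, and the sphingosine-1-phosphate receptor gene S1pr4 at 5.59-fold. Start-overlapping peaks were at 14 of the 36 receptor signalling, 14 of the 40 NF-kB and TNF and 12 of the 28 migration genes. Of all protein-coding genes, 7.54% had one.

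The shares in the next lists are read beside the 2.39% of all protein-coding genes. BCL2 family and stress apoptosis genes had 3 of 24 (12.5%), with Bbc3, the gene of the BH3-only protein PUMA, at 3.22-fold and the pseudokinase gene Trib2 at 3.06-fold behind Cdkn1b. In nutrient sensing 2 of 39 (5.13%) had one, Eif4ebp1 and its paralog Eif4ebp2, the second at 2.54-fold. Autophagy had 1 of 30 (3.33%), Ulk2 at 3.16-fold, and glycolysis 1 of 22 (4.55%), Gapdh at 4.45-fold. Translation factors had 4 of 42 (9.52%), led by Eif4a1 at 3.83-fold, and histone modifying enzymes 3 of 47 (6.38%), led by Kdm2a at 2.97-fold and Kmt5a at 2.86-fold. The mRNA decay and quiescence list had 2 of 30 (6.67%), the RNase gene Zc3h12a at 3.87-fold and Klf6 at 3.57-fold, and heat shock chaperones 1 of 20 (5.00%), Hspa4 at 2.53-fold. Of hnRNP and SR splicing factors 5 of 31 (16.1%) had one, all below the median of downstream peaks, from 2.58-fold at Hnrnpab to 2.17-fold at Srsf1. In each of these lists more genes had a start-overlapping peak than a downstream one. Of all protein-coding genes, 7.54% had a start-overlapping peak.

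Markers of other cell types had no downstream peak, at 0 of 12 B cell, 0 of 15 myeloid and 0 of 12 NK and CD8 T cell genes, with upper limits of 26.5%, 21.8% and 26.5%. With 2.39% of all protein-coding genes having one, lists of this size are too short to tell a 0 from the background. With promoter peaks of any kind counted, core genes of regulatory T cells had them at 25 of 41 and these 3 marker lists at 0, 2 and 0 genes, where 11.3% of protein-coding genes had one. Cd74, a gene of antigen-presenting cells that is in none of the lists and was chosen after its values were seen, had 3.24-fold past its start, against 5.16-fold over it. Peaks are not expression, and the labelled cell type was not tested by these counts.

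**Figure D4:**
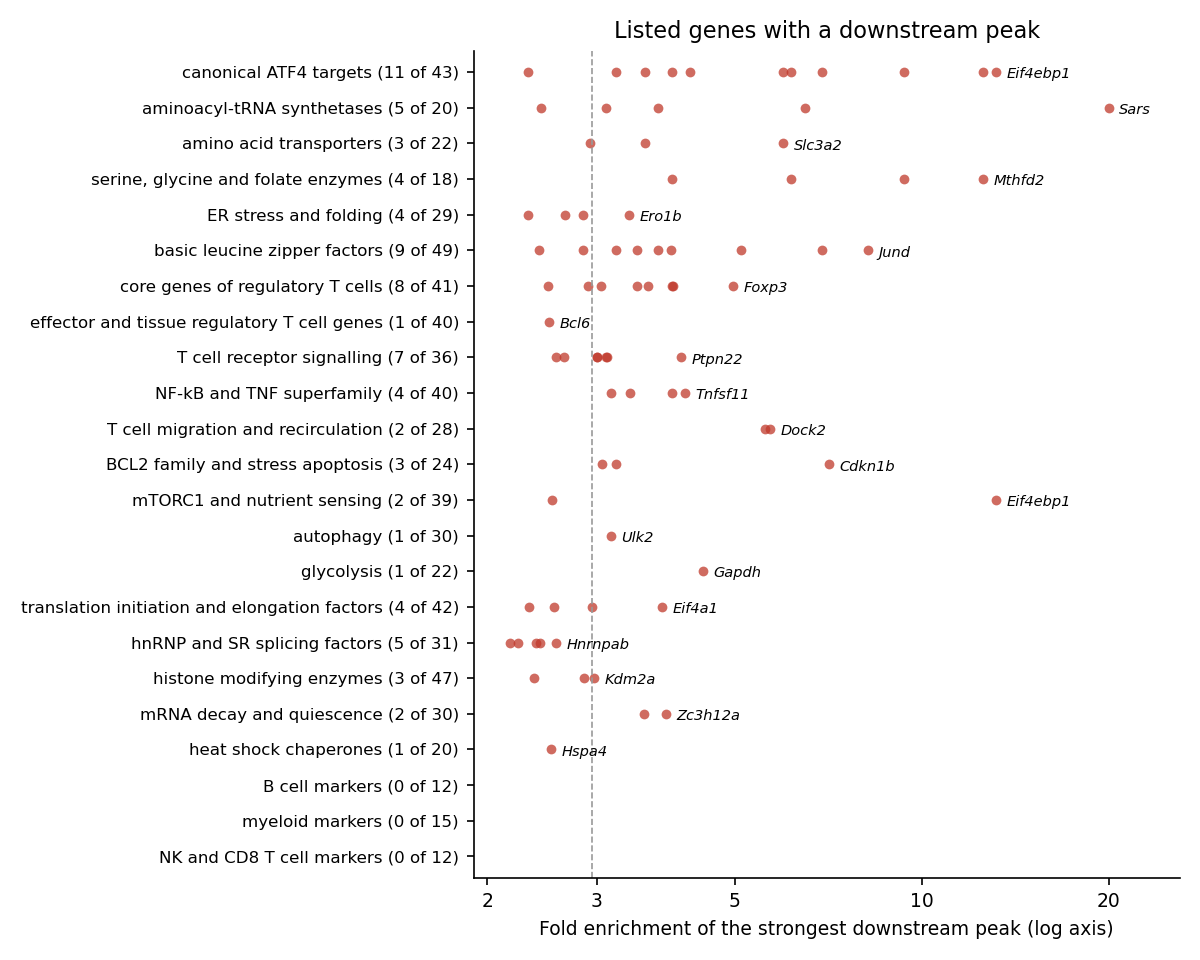
Fold enrichment (log axis) of the strongest downstream peak of each gene in 23 gene lists, each point a gene, with the strongest gene of each list named and the count of genes with such a peak beside the list's name. The dashed line is the median of all downstream peaks, 2.94, and the points past 10-fold belong to Sars, Eif4ebp1 and Mthfd2.

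Some of these genes had a second promoter peak. Of the 524 genes, 110 had a start-overlapping or upstream coding peak within 1 kb as well, or 21.0% (17.6 to 24.7). Genes of upstream peaks had a second coding promoter peak in 24.7% (19.7 to 30.3), and genes of start-overlapping peaks in 8.0% (6.74 to 9.42). The classes differ in size, with 1650 genes of start-overlapping, 524 of downstream and 275 of upstream peaks. These shares therefore cannot be compared directly. Of all protein-coding genes, 7.54% had a start-overlapping peak and 2.39% a downstream peak. The downstream share was 33.8% when only peaks from 100 bases on were taken. Peaks were matched by gene symbol, so the paired peaks could belong to different transcript starts. In 88 genes the other peak overlapped a start of the gene. In 28 of those 88 the downstream peak had the higher fold enrichment, with medians of 3.05-fold for the downstream and 3.48-fold for the start-overlapping peaks. In 24 genes there was an upstream peak, and in 10 of them the downstream peak was the higher. A second listed peak of any gene lay within 1 kb of 142 downstream peaks, or 26.2% (22.6 to 30.2), against 23.4% (18.5 to 28.8) of upstream peaks, 13.9% (12.3 to 15.6) of start-overlapping peaks and 19.3% of all peaks.

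Pairs within a gene ran both ways. Herpud1, which encodes an ER membrane protein of protein degradation, had 2.33-fold past its start, against 24.1-fold over it, and H4c14 had 2.74-fold past it, against 27.2-fold over it. The downstream peak of Gars, 852 bases in, had 6.48-fold, against 14.4-fold at the start peak described above, which held a TGATGNAA match. Ulk2 had 3.16-fold past the start of a predicted transcript, against 11.8-fold over the start of NM_013881.4. Junb had 2.42-fold past its start, against 7.51-fold over it. At these genes the peak over a start was by far the stronger.

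The order was the opposite at other genes. Slc3a2, which encodes the heavy chain of transporters of large neutral amino acids, had 5.98-fold 750 bases past its start (chr19:8712820-8713147), against 2.92-fold over it. Dock2 had 5.70-fold past the start of a predicted transcript, against 3.11-fold over the start of NM_033374.3. Gm4070 had 7.97-fold past its start, against 4.19-fold over it. At Foxp3 the peak past the start of NM_001199348.1 had 4.97-fold, against 3.46-fold for the peak over the start of a second transcript, NM_001199347.1. Both Foxp3 values rest on modest −log10 q values, 6.49 for the downstream and 3.61 for the start-overlapping peak. At Ctla4 the downstream and start peaks had 3.62-fold and 3.57-fold, and by −log10 q the downstream peak was the lower, at 6.72 against 18.98. Both genes had further listed peaks. Those of Ctla4 began 1512 and 2707 bases in, at 4.01-fold and 3.18-fold, and Foxp3 had an intron peak of 3.98-fold with a −log10 q of 7.58.

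**Figure D5:**
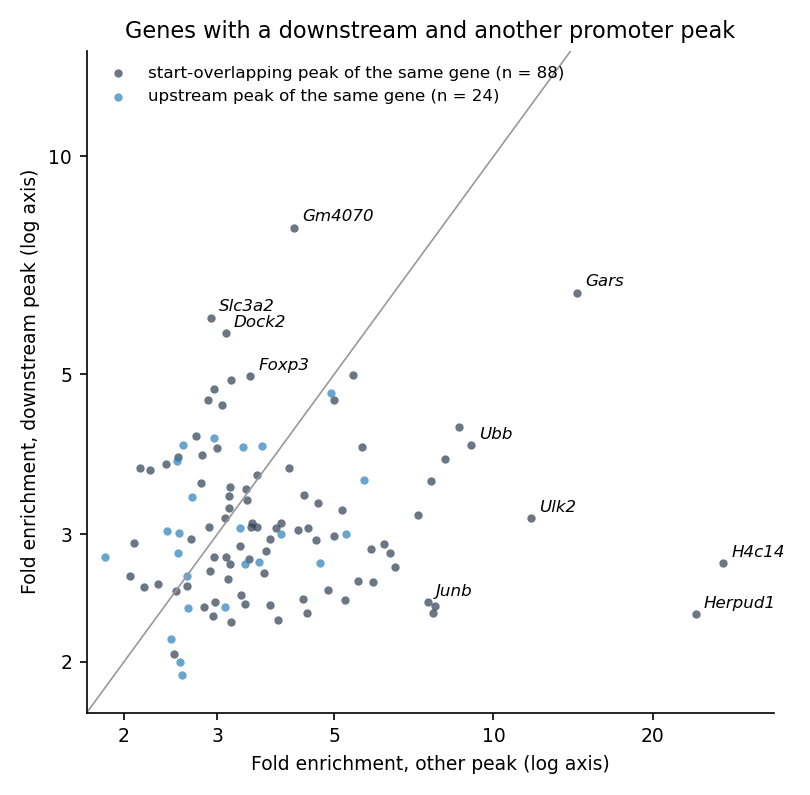
Fold enrichment of the downstream peak (vertical, log axis) against that of a start-overlapping or upstream peak of the same gene (horizontal, log axis), with a line of equal values. Of 88 genes with a start-overlapping peak, 28 lie above the line, among them Slc3a2 and Dock2, while Gars, H4c14 and Herpud1 lie far below it.

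A few genes had more than 1 downstream peak. Add3, which encodes the membrane skeleton protein adducin 3, had 3, each assigned to a different start. They began 1, 156 and 725 bases from those starts, with 3.61-fold, 3.71-fold and 4.60-fold. Another 15 genes had 2, in some of them assigned to different starts. In 7 of the 15 the peak nearer to its own assigned start was the stronger. Gapdh, whose reads may be shared with pseudogene copies, had 4.45-fold at 10 bases and 2.80-fold at 676. Klf6 had 3.34-fold at 14 bases and 3.57-fold at 883, and Eif4a1 3.83-fold at 56 and 3.27-fold at 728. Nfkbiz had 2.59-fold at 6 bases from the start of a predicted transcript. Its other peak had 3.40-fold at 655 bases from the start of NM_001159394.1.

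The sequence before the starts was compared between classes of peaks. The assigned start of 338 downstream peaks, 332 distinct starts, had a RefSeq promoter window, which runs from 250 bases before to 50 after the start. TGATGNAA was in 2.71% (1.25 to 5.08) of these windows, against 4.27% (3.11 to 5.71) of 1007 windows at start-overlapping peaks and 3.97% of all 32851 windows. TGACGTCA was in 2.41% (1.05 to 4.69) at downstream peaks, against 4.37% (3.19 to 5.82) at start-overlapping peaks and 1.79% of all windows. CCGGAAG was in 13.6% (10.1 to 17.7) at downstream peaks, against 21.2% (18.7 to 23.8) at start-overlapping peaks and 8.86% of all windows, and TGANTCA was in 4.82%, against 5.36% and 7.81%. At 138 windows of upstream peaks, TGATGNAA was in 2.17%, TGACGTCA and TGANTCA each in 2.90%, and CCGGAAG in 23.9%. The median share of G and C was 62.3% at downstream peaks, against 62.7% at start-overlapping peaks and 52.7% in all windows. Since a downstream peak begins past the start, at most 50 bases of such a window can lie under it, so these shares are of the DNA before the peaks. Of the 20 strongest downstream peaks 12 had such a window, and TGATGNAA was in that of Gars alone.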

How the data were processed

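The series holds ATF4 ChIP-seq and inputs, 2 samples each. The submitters' processing notes name MACS2, Bowtie2, deepTools and Trim Galore, with build mm10. The sources used here do not give their versions, whether replicates were pooled or how inputs were used. The deposited list holds, in 1 column, a score, a fold enrichment, −log10 p and q, a summit and an annotation in the layout of ChIPseeker. The class for promoters takes precedence over exon and intron in it, so exons and introns are not given for these peaks. Starts were raised by 1, and the distance to the start was then recovered in 4544 of 4544 peaks. All 541 members were kept, with no filter on low values.

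The class rule, the intervals and the motif search were tested on simulated data. Gene symbols, lists and 32851 promoter windows were matched to RefSeq tables of GRCm38.p6, in which all 524 genes and 416 of their promoters were found. Peaks on chromosome 18 were left out of the sequences around summits. The scripts ran in Python 3.11.15 with pandas 2.3.3, numpy 2.4.6, matplotlib 3.10.9 and scipy 1.17.1. No test was run, since there are no values per sample and peaks are not replicates. Members and lists were chosen with earlier results of these data known.

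Named genes were the 20 strongest downstream peaks by fold enrichment and the 5 by −log10 q, up to 4 of each of 23 lists, the 3 nearest and 3 farthest, and the genes with the most downstream peaks. Others were chosen after their values were seen. Of the peaks that began 1 base from the start, 3 of 8 were named. Of 691 list entries 690 were kept after older symbols were mapped, the other being a repeat. Alternatives changed the q threshold, the distance, the point measured, the transcripts, the number of peaks per gene and repeated genes.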

Additional observations from a re-analysis of the deposited data

How the results depend on the processing

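Of 44 values under the alternatives, 20 stayed within their interval or within 1.5 times the count. The number of downstream peaks moved to 270 with those under 100 bases left out, and to 1649 when the summit placed the peak, because 67.6% of start-overlapping peaks have their summit past the start. The median fold enrichment of downstream peaks moved to 3.17 at a −log10 q of at least 3, to 3.04 from 100 bases on and to 3.25 by summit. Their median −log10 q moved to 6.88 by summit, and to 5.87 at a −log10 q of at least 3, which removes its low values by construction. The difference from start-overlapping peaks moved to −0.311 at a −log10 q of at least 3, to −0.284 from 100 bases on and to −0.477 with NM_ transcripts alone, and was negative in all 5 settings in which it could be had. The difference from upstream peaks moved to 0.0265, 0.0570 and 0.240 at a −log10 q of at least 3, from 100 bases on and by summit, and turned to −0.007 with NM_ transcripts alone and to −0.00624 with the strongest peak of each gene. The share at 5-fold or more moved to 7.78% from 100 bases on and 12.98% by summit. The share of genes with another promoter peak moved to 17.5% at a −log10 q of at least 3, to 33.8% from 100 bases on and to 16.6% with NM_ transcripts alone. In window bases under the peak, TGATGNAA and TGACGTCA were in 0% of 163 peaks, TGANTCA in 0.613% and CCGGAAG in 2.45%, over a median of 33 bases. The cause was not tested where none is given. Of the 20 strongest peaks, from 15 to 20 remained under each of the 6 settings. The q threshold could remove none of them, since their lowest −log10 q was 6.77. Taking the strongest peak of each gene could not either, since each was already the strongest downstream peak of its gene. Placed by summit, Sars, Clic4, Jund, Gm4070 and Cdkn1b, the 2 strongest among them, were lost, with summits 1053 to 1258 bases in. No paired analysis was possible because the list has no values per replicate, and for the same reason no replicate could be left out.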

Other observations

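The genes of this part were chosen after their values were seen. Replication-dependent histone genes, which package newly made DNA, had downstream peaks at 14 of 62 (22.6%), against 2.39% of all protein-coding genes. The strongest peak of each gene ran from 5.74-fold at H3c7 to 2.34-fold at H2bc15. After H3c7 came H2ac12 at 4.84-fold, H4c2 at 4.76-fold and H2bc12 at 4.10-fold. These genes are short, close together and much alike, so reads may be shared between copies. Cytosolic ribosomal protein genes had downstream peaks at 6 of 84 (7.14%), all weak, from 2.80-fold at Rps3 to 1.82-fold at Rps29, the lowest of all. Of 8 Gimap genes, which encode GTPases of lymphocytes, 2 (25.0%) had them, Gimap6 at 4.60-fold and Gimap5 at 3.71-fold. Solute carrier genes had them at 8 of 375, near the 2.39% of all protein-coding genes. Start-overlapping peaks were at 41 of the 62 histone and 31 of the 84 ribosomal protein genes. They were also at 4 of the 8 Gimap and 24 of the 375 solute carrier genes. Of all protein-coding genes, 7.54% had one.

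Downstream peaks with a high −log10 q and a low fold enrichment stood together on chromosome 6. The predicted genes Gm40367, Gm36327 and Gm40364 had −log10 q values of 77.2, 76.7 and 71.8 at only 2.89-fold, 2.94-fold and 2.73-fold, at 922, 905 and 944 bases from their starts. On chromosome 4 the neighbouring genes Gm13276, Gm13277, Gm13278 and Gm13275 had 3.40-fold, 2.66-fold, 2.67-fold and 3.11-fold past their starts, and the genes Gm13277, Gm13278 and Gm13275 had a start-overlapping peak each, at 3.68-fold, 2.91-fold and 3.49-fold. Reads shared between near copies were not tested.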
